A study of Oryctolagus cuniculus with 2 samples.

Results

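The nuclei described here are the retinal ganglion cell nuclei that the authors placed in their cluster 7. They were taken as all nuclei labelled as ganglion cells with that cluster number, and there were 217 of them among 6542 nuclei in the series, or 3.32%. The rule used no value of depth, score or mitochondrial share. The clusters were nevertheless made by the authors from the same nuclei, so every comparison of cluster 7 with other nuclei is a description and carries no test.

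The series holds single-nucleus RNA sequencing of rabbit retina in 2 libraries. The first pooled nuclei of 3 wild-type rabbits and the second pooled nuclei of 3 rabbits with a knockout of CLRN1, the gene of the membrane protein clarin-1, and all animals were 10 months old. Each animal gave a 5 mm punch of the visual streak, the horizontal band of dense cells in the rabbit retina, taken 2 to 3 mm ventral to the medullary rays, the bands of myelinated nerve fibres. Nuclei were mixed at equal concentration with a target of 10000 and captured with 10x Genomics 3' v3.1 chemistry. The labels say that nuclei were assigned to single animals from sequence differences. The values used here do not name the animal of a nucleus, so each genotype is 1 library and no p-value is given. The effects of genotype, pooled animals and library preparation cannot be told apart.

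Ganglion cells are the output neurons of the retina. They collect signals from bipolar and amacrine cells and send them along long axons in the optic nerve to the brain. Their large cell bodies lie in the innermost cell layer, beside those of displaced amacrine cells, and they sustain a high level of transcription and protein synthesis to serve the axon. In a study of single nuclei, the nuclear transcripts of such cells are counted, without those that sit in the cytoplasm and the axon.

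The wild-type library held 122 of the cluster 7 nuclei among 3484 nuclei, and the knockout library held 95 among 3058. All 217 carried the ganglion cell label, and the only other nuclei with that label were the 107 of cluster 14, of which 26 were wild type and 81 knockout. The libraries shared 5 cell barcodes, and 1 of these had a nucleus in cluster 7. The analysed table held no gene names, so the ganglion cell label was checked against the deposited ganglion cell score instead of single marker genes. A module score of this kind compares the level of a list of marker genes in a nucleus with that of control genes on a log scale. Which genes the lists hold is not stated in the labels or files used here.

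Cluster 7 made up 3.50% of the wild-type nuclei (exact 95% Clopper-Pearson interval 2.92 to 4.17%) and 3.11% of the knockout nuclei (2.52 to 3.78%). These intervals, like all intervals below, cover counting error only. The intervals of the 2 libraries overlapped, also over nuclei other than rods, where cluster 7 made up 9.78% (8.19 to 11.6%) and 9.51% (7.76 to 11.5%). Its share of the nuclei with a ganglion cell label was 82.4% in the wild type (75.3 to 88.2%) and 54.0% in the knockout (46.3 to 61.5%), and these intervals did not overlap. Cluster 14, which completes that denominator, was larger in the knockout library. With cluster 14 left out of the nuclei other than rods, cluster 7 stood at 9.99% and 10.3%. Among nuclei with at least 2000 UMIs it made up 10.9% of the wild type (9.17 to 12.9%) and 7.13% of the knockout (5.81 to 8.65%), where more knockout nuclei of other types passed that minimum, and the intervals were apart.

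Of the 26 clusters, cluster 7 had the highest median number of transcripts per nucleus. Over both libraries its median was 6458 transcripts per nucleus, counted as unique molecular identifiers (UMIs). Within the wild-type library its median was 1.63 times that of the next cluster, an amacrine cell cluster at 3626 UMIs. In the knockout library it was 1.63 times that of rod cluster 2, at 4798 UMIs. The median was 5924 UMIs in the wild-type library, with quartiles of 4784 and 6670 and a range from 2479 to 16080. In the knockout library it was 7830 UMIs, with quartiles of 6614 and 9842 and a range from 2863 to 23682. The lower quartile of cluster 7 was above the upper quartile of each other cell type in the same library, as the plot of UMIs by cell type shows.

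**Figure D1:**
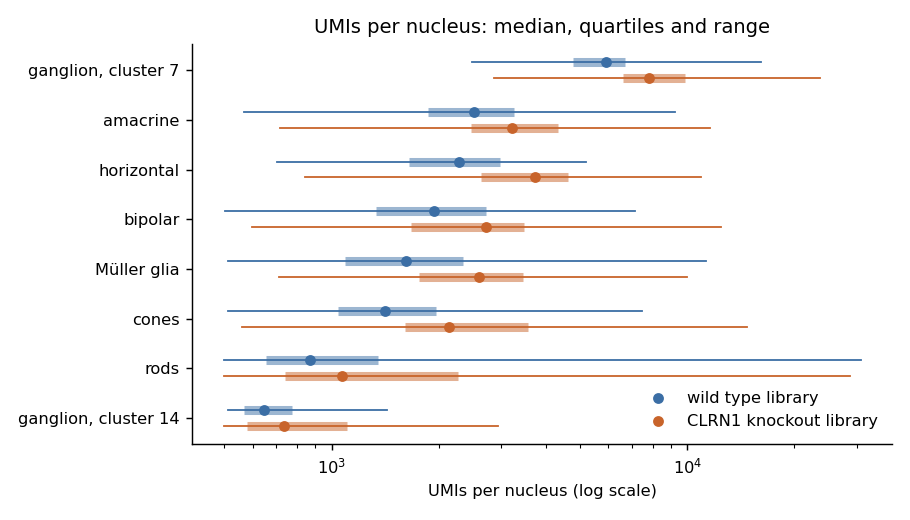
UMIs per nucleus (horizontal log axis) for cluster 7, the 6 other cell types and ganglion cell cluster 14, with points at the median, thick bars from the lower to the upper quartile and thin lines over the whole range, blue for the wild-type and orange for the knockout library. Cluster 7 has the highest median in both libraries (5924 and 7830 UMIs), and cluster 14 has the lowest (647.5 and 736).

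The margin depended on the cell type. Amacrine cells, the inhibitory interneurons of the inner retina, came closest in the wild-type library: the cluster 7 median was 2.35 times theirs, and 2.43 times in the knockout. Against horizontal cells, the interneurons at the photoreceptor terminals, the ratio was 2.60 and 2.10. Against bipolar cells, which link photoreceptors to ganglion cells, it was 3.05 and 2.87. Müller glia, the radial glia of the retina, gave 3.65 and 3.02, and cones gave 4.2 and 3.65. Rods, the photoreceptors of dim light and the most numerous nuclei here, gave 6.82 and 7.34. Among the groups plotted, the largest ratio was to the other ganglion cell cluster. The median of cluster 7 was 9.15 times that of cluster 14 in the wild type and 10.6 times in the knockout, where the ratio to rod cluster 0 alone was larger, 11.9.

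The spread of UMIs in cluster 7 was smaller than in each other cell type taken as a whole. The standard deviation of log2 UMIs was 0.45 in wild-type and 0.51 in knockout cluster 7 nuclei. In the other cell types it ran from 0.62 to 1.04 in the wild type and from 0.67 to 1.23 in the knockout, while cluster 14 stood at 0.34 and 0.65. Amacrine cells, horizontal cells and rods each merge several clusters of unlike depth, and single clusters could be tighter. Over both libraries, horizontal cluster 20 had a median of 4267 UMIs and an upper quartile of 4843, where cluster 7 had 6458 and 8413. No cluster 7 nucleus had fewer than 2479 UMIs, although nuclei with as few as 499 were deposited. Cluster 7 therefore took a larger share of the captured RNA than of the nuclei. It held 10.8% of the wild-type UMIs and 9.82% of the knockout UMIs, which is 3.07 and 3.16 times its share of nuclei.

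Among all nuclei with at least 4000 UMIs, cluster 7 supplied 111 of 356 in the wild type (31.2%, interval 26.4 to 36.3%) and 93 of 615 in the knockout (15.1%, 12.4 to 18.2%). That limit falls at different places in the 2 libraries, since the knockout nuclei were deeper. With a limit of 4 times each library's median, 4702 and 6210 UMIs, the shares were 35.9% (30.1 to 42.1%) and 26.3% (21.3 to 31.7%), and the intervals overlapped. The very deepest nuclei were mostly of another kind. Of nuclei with 12000 or more UMIs, cluster 7 supplied 3 of 31 in the wild type and 10 of 51 in the knockout. Rods supplied 28 and 39 of them, and every one of those rods belonged to rod cluster 2.

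The knockout to wild-type ratio of median UMIs in cluster 7 was 1.32, or 0.40 on the log2 scale. The same ratio was 1.32 over all nuclei, and it ran from 1.23 in rods to 1.63 in horizontal cells among the other cell types. Divided by the library median of all nuclei, the log2 difference of cluster 7 was 0.00. The higher depth of the knockout nuclei was therefore no larger in cluster 7 than in the library as a whole.

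Genes detected per nucleus followed depth. The median was 2342.5 genes in wild-type and 2891 in knockout cluster 7 nuclei, against 759 and 952 over all nuclei of those libraries. Per 100 UMIs, cluster 7 had the fewest genes of all groups, 40.0 in the wild type and 36.6 in the knockout, where all nuclei had 64.4 and 61.3. This number falls as depth rises, since further UMIs come increasingly from genes already seen. Within cluster 7 the median fell from 44.1 in the 41 wild-type nuclei with the fewest UMIs to 36.2 in the 41 with the most, and from 40.5 to 31.6 between the corresponding groups of 32 knockout nuclei. The groups were therefore set side by side at matched UMIs.

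At matched UMIs cluster 7 showed fewer genes than rods and more than horizontal cells. Matching was done in pairs of nuclei of 1 library whose UMIs differed by at most 5%, each nucleus being used once. Against rods, the median of the pair ratios was 0.91 in the wild type, with quartiles of 0.88 and 0.93. The cluster 7 nucleus had fewer genes in 102 of 106 pairs, with medians of 2281 against 2526 genes at 5717.5 and 5690 UMIs. In the knockout the ratio was 0.92, with fewer genes in 89 of 95 pairs and medians of 2891 against 3115 genes. Deep rods belonged almost entirely to rod cluster 2, with 117 of the 121 wild-type rods above the lower quartile of cluster 7. Against that cluster alone the ratios were 0.90 and 0.92.

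Müller glia gave ratios close to those of rods, 0.89 in the wild type over 19 pairs and 0.91 in the knockout over 13 pairs. Bipolar cells gave 0.92 and 0.98, with fewer genes in cluster 7 in 13 of 18 and 9 of 13 pairs. Cones gave 0.93 and 0.97, with 11 of 14 and 16 of 21 pairs lower. Against amacrine cells, the ratio was 0.97 in the wild type and 0.95 in the knockout, with 30 of 48 and 30 of 39 pairs lower. Horizontal cells stood on the other side. Cluster 7 had 1.05 times their genes in the wild type and 1.09 times in the knockout, and was lower in only 6 of 18 and 6 of 19 pairs. The quartiles of the pair ratios lay on both sides of 1 for horizontal and bipolar cells in both libraries, and for amacrine cells and Müller glia in the wild type. Cluster 14 could not be compared, because its deepest nucleus had 2929 UMIs and 0 wild-type pairs and 1 knockout pair were found.

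**Figure D2:**
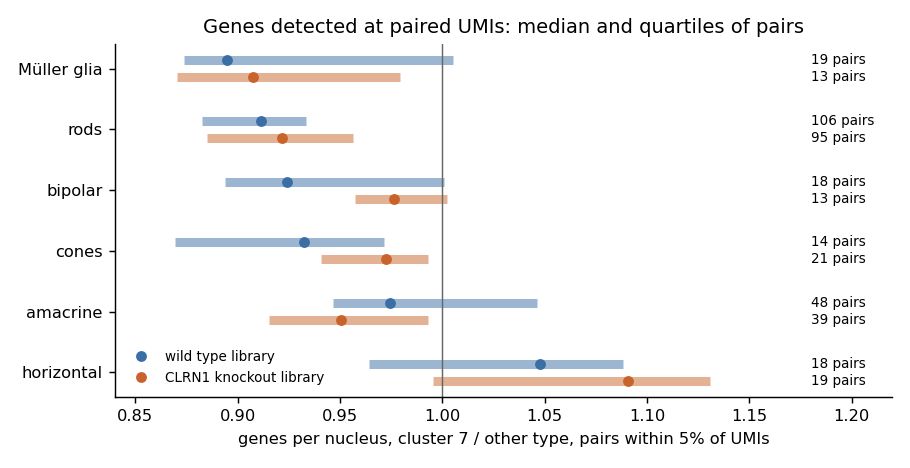
Ratio of genes per nucleus, cluster 7 over the other cell type (horizontal axis), in pairs of nuclei within 5% of UMIs, with points at the median and bars from the lower to the upper quartile of pairs, blue for wild type and orange for knockout. The medians lie below 1 for 5 types in both libraries (0.89 to 0.98) and above 1 for horizontal cells (1.05 and 1.09).

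Windows of UMIs, the matching that had been set as the first choice, gave a less even picture. In windows 0.5 wide on the log2 scale, the ratio to rods was 0.89 and 0.95. The ratio to amacrine cells was 1.07 in the wild type and 1.02 in the knockout, and to cones 1.04 in the knockout, so for these types windows and pairs differed in direction. Within the wild-type window the cluster 7 nuclei had a median of 4945.5 UMIs and the amacrine nuclei 4332, so the matching was incomplete there. Among the types that filled a window, the lower number of genes in cluster 7 held under both kinds of matching only for rods. For horizontal cells, windows gave 1.19 in the knockout, the same direction as the pairs. That value rested on 1 window with 11 cluster 7 nuclei. Their median was 4981 UMIs where horizontal cells had 4622, so the matching was incomplete there too.

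Knockout and wild-type cluster 7 nuclei, paired with each other at median UMIs of 6731 and 6864.5, had 2628 and 2583.5 genes as medians. The pair ratio was 1.02, with quartiles of 1.00 and 1.04, and the knockout nucleus had more genes in 41 of 54 pairs. Windows gave 1.08. The other cell types had pair ratios from 1.00 in rods to 1.04 in amacrine cells, and cluster 14 had 0.96. The pair ratio of cluster 7 thus lay inside the range of the other cell types. In windows its ratio lay above theirs, which ran from 1.01 in bipolar cells to 1.06 in amacrine cells. In the cluster 7 window with the most weight, knockout nuclei had a median of 6844 UMIs and wild-type nuclei 6309.5, so the matching was incomplete there. The deepest window was also uneven, with 9600 against 8786.5 UMIs. In the shallowest window, with 11 knockout and 46 wild-type nuclei, the medians were close, 4981 and 4945.5 UMIs. The ratio of genes was 1.08 in each of these windows, and the cause was not tested.

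The ganglion cell score set cluster 7 apart from all other cell types. Its median was 0.66 in the wild type, with quartiles of 0.45 and 0.81, and 0.71 in the knockout, with quartiles of 0.56 and 0.84. The medians of the 6 other cell types lay from -0.11 to -0.05. It exceeded 0 in 216 of the 217 nuclei, and it was the highest of the 9 scores in 207 (95.4%, interval 91.7 to 97.8%). Horizontal scores led in 5 of the remaining 10 nuclei, rod scores in 3, and the cone and Müller glia scores in 1 each. Because the authors made the clusters from these nuclei, this is a check of the label and no independent result.

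Cluster 14 scored still higher on the same list, with medians of 0.97 and 1.13, at much lower depth. A limit of 0.39, which the upper 90% of cluster 7 nuclei reached, was reached by 104 of the 107 cluster 14 nuclei. Of the 6218 nuclei of other cell types it was reached by 70, or 1.13%. Among nuclei with at least 4000 UMIs it was reached by 186 of 204 in cluster 7 and by 1 of 767 of other types. Of these deep nuclei of other types, 0.130% reached it (interval 0.0033 to 0.724%).

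The score showed little relation to depth inside cluster 7. In 3 groups of 40 or 41 wild-type nuclei ordered by UMIs the median was 0.66 in each, although UMIs rose from a median of 4300 to 7573. In 3 such groups of knockout nuclei the medians were 0.70, 0.72 and 0.75, at 6127.5, 7830 and 10272.5 UMIs. Spearman's rho between the score and UMIs over nuclei was 0.03 in the wild type and 0.01 in the knockout. The nuclei of a library share their depth and free RNA, so these are descriptions. By score, 11 nuclei lay below 0.3, 66 between 0.3 and 0.6, 109 between 0.6 and 0.9 and 31 above 0.9. The 11 lowest nuclei were shallower, with a median of 4290 UMIs, while the 3 other ranges had medians between 6200 and 6714. The lowest, a wild-type nucleus with 3965 UMIs, was at -0.09.

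**Figure D3:**
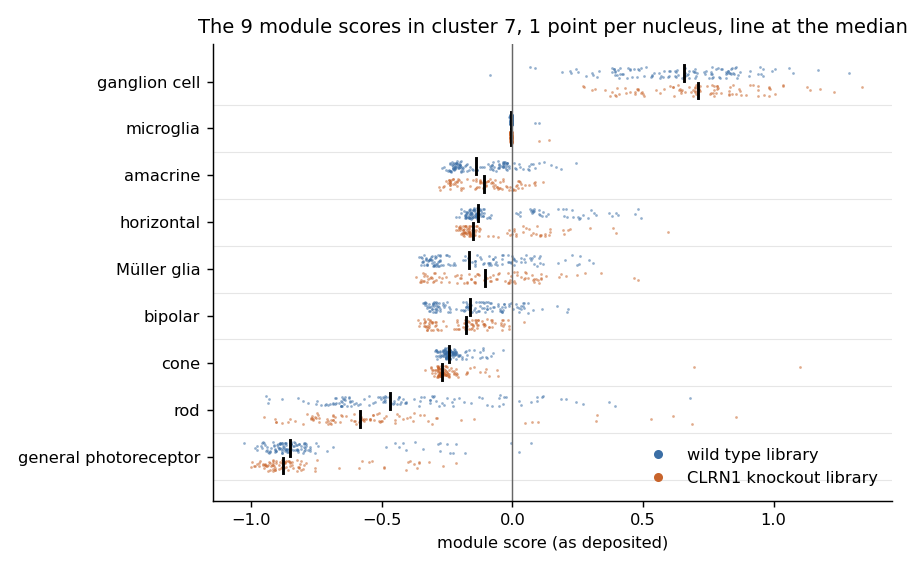
The 9 deposited module scores (horizontal axis) in the nuclei of cluster 7, 1 point per nucleus and a black line at the median, blue for wild type and orange for knockout. Only the ganglion cell score has its medians well above 0 (0.66 and 0.71), the rod and general photoreceptor scores are lowest, and the horizontal scores form a dense group below 0 and a tail above it.

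Photoreceptor transcripts were low in these nuclei. The rod score had medians of -0.47 in the wild type and -0.58 in the knockout, the cone score -0.24 and -0.27, and the general photoreceptor score -0.85 and -0.88. At paired UMIs rods had rod scores of 0.72 and 1.09, cones 0.93 and 1.19, and bipolar cells 0.57 and 0.67. Wild-type amacrine cells had -0.37 where cluster 7 had -0.31, so low rod scores were shared with these inner neurons. Free RNA from other cells was not measured here.

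The rod score moved with depth more than the ganglion cell score. Its medians were -0.29, -0.48 and -0.62 in the same groups of wild-type nuclei by rising UMIs, and -0.49, -0.60 and -0.69 in the knockout. The rho with UMIs was -0.46 and -0.45. The knockout minus wild-type difference of medians in cluster 7 was -0.11 for this score, and -0.03 over pairs within 5% of UMIs, where the knockout nucleus was higher in 25 of 54. A difference of this size is therefore given with its depth: the knockout nuclei were 1.32 times as deep.

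The other differences of medians between the libraries were smaller in size. They were 0.05 for the ganglion cell score, 0.06 for Müller glia, 0.03 for amacrine, -0.02 for the horizontal, cone and bipolar scores, -0.03 for general photoreceptors and 0.00 for microglia. The interquartile range of single nuclei was 0.36 and 0.29 for the ganglion cell score. Over pairs, the ganglion cell difference was 0.05, with the knockout nucleus higher in 28 of 54, and the Müller glia difference was 0.02. With 1 library per genotype, the spread between replicate libraries is unknown.

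The horizontal score had a dense group of nuclei below 0 and a tail above it. It lay between -0.25 and -0.1 in 137 nuclei and between -0.1 and 0 in 11, and it exceeded 0 in 69. The share above 0 was 33.6% in the wild type (interval 25.3 to 42.7%) and 29.5% in the knockout (20.6 to 39.7%), so both libraries had both kinds of nucleus. The nuclei above 0 had a median of 6565 UMIs and the others 6450.5, which is close to it. Their ganglion cell scores had medians of 0.63 and 0.71. Among nuclei with at least 4000 UMIs, 34.2% and 29.0% of cluster 7 exceeded 0 in the wild type and the knockout, where rods did so in 33.1% and 40.9%. Amacrine cells did so in 14.8% (6.98 to 26.2%) and 28.1%. The wild-type interval of cluster 7 at that depth, 25.5 to 43.8%, overlapped that of amacrine cells only at its edge. Since the list behind this score is not known here, the genes that place these nuclei above 0 cannot be named. The lower quartile of horizontal cells was -0.06, and 74 of the 217 nuclei reached it. Only 4 reached the median horizontal score of horizontal cells, 0.41.

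Bipolar scores above 0 were found in 18 of 122 wild-type nuclei (14.8%, interval 8.98 to 22.3%) and in 1 of 95 knockout nuclei (1.05%, 0.0266 to 5.73%). This was the only one of the 9 scores whose intervals did not overlap between the libraries. The medians, -0.16 and -0.18, were close, and the highest wild-type value was 0.21, where bipolar cells had a median of 0.71. Over pairs at matched UMIs, 4 of 54 wild-type and 0 of 54 knockout nuclei were above 0, and the intervals, 2.06 to 17.9% and 0 to 6.60%, overlapped. The pairs lay at median UMIs of 6864.5 and 6731, whereas the 18 wild-type nuclei above 0 had a median of 5098, so few of them were paired. Under 6000 UMIs, 14 of 66 wild-type (12.1 to 33.0%) and 0 of 15 knockout nuclei (0 to 21.8%) were above 0. At 6000 or more UMIs, 4 of 56 and 1 of 80 were. Among nuclei with at least 4000 UMIs, amacrine cells exceeded 0 in 26.2% of the wild type and 14.4% of the knockout, and rods in 49.0% and 53.8%. At that depth cluster 7 exceeded 0 in 14.4% of the wild type (8.47 to 22.4%) and 1.08% of the knockout (0.0272 to 5.85%). The wild-type share overlapped that of amacrine cells in its interval (15.8 to 39.1%). The knockout share lay below that of amacrine cells (9.13 to 21.1%), with intervals apart. Whether these values come from the nuclei or from free RNA was not tested.

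Few nuclei reached the scores of the other second cell types. The lower quartile of the rod score in rods was reached by 1 cluster 7 nucleus, that of the cone score in cones by 2, and that of the amacrine score in amacrine cells by 2. None reached that of bipolar cells or Müller glia, where a count of 0 allows a share of up to 1.38% (3 nuclei of 217). Both nuclei with high cone scores were in the knockout library. The higher of them, at 1.10 with a ganglion cell score of 0.50, had 4563 UMIs, which is below the lower quartile of its library. No search for doublets was made here.

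Mitochondrial transcripts in a nuclear preparation come from outside the nuclei, and whether they came with organelles or as free RNA was not tested. In cluster 7 they made up a median of 0.152% of a nucleus's UMIs in the wild type, with quartiles of 0.0369 and 0.60%. In the knockout the median was 0.264%, with quartiles of 0.0361 and 0.613%. The other ganglion cell cluster was far higher, with medians of 3.54 and 4.71%. Over 1% were 16 of 122 wild-type nuclei of cluster 7 (13.1%, interval 7.69 to 20.4%) and 12 of 95 knockout nuclei (12.6%, 6.70 to 21.0%). The 2 libraries thus had nearly the same share of such nuclei, while the knockout had the higher median.

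The sum over nuclei rested on few of them. Pooled over the cluster, mitochondrial UMIs made up 0.402% in the wild type and 0.666% in the knockout. One knockout nucleus held 1536 mitochondrial UMIs among 16834, or 9.12%, which is 28.5% of all mitochondrial UMIs of knockout cluster 7. Without it the pooled knockout share was 0.486%. In the 54 pairs of knockout and wild-type nuclei at matched UMIs the medians were 0.225 and 0.162%, and 6 knockout and 10 wild-type nuclei exceeded 1%. The direction between the libraries therefore differed with the measure.

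Set against deep rods, cluster 7 nuclei more often exceeded 1% mitochondrial UMIs. In pairs at matched UMIs, 14 of 106 wild-type cluster 7 nuclei exceeded 1% and 0 of their rod partners. In the knockout these numbers were 12 and 0 of 95. Against amacrine cells at matched UMIs no such gap was seen, with 4 against 3 of 48 nuclei in the wild type and 5 against 9 of 39 in the knockout. Nuclei of cluster 7 held 15.1% of all mitochondrial UMIs of the wild-type library and 19.4% of the knockout library. Their shares of all UMIs were 10.8% and 9.82%. The knockout value includes the 1 nucleus that held 1536 of the 5386 mitochondrial UMIs of knockout cluster 7.

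In the knockout, the 12 nuclei over 1% had a median ganglion cell score of 0.92, against 0.70 in the other 83. In the wild type the 16 nuclei over 1% had 0.61, against 0.66 in the other 106. Over all 122 wild-type and all 95 knockout nuclei of the cluster, the direction was the same in both libraries. Spearman's rho between the mitochondrial share and the ganglion cell score was 0.21 in the wild type and 0.26 in the knockout. The nuclei over 1% were somewhat deeper in both libraries, with medians of 6172.5 against 5869 UMIs in the wild type and 8592.5 against 7494 in the knockout.

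**Figure D4:**
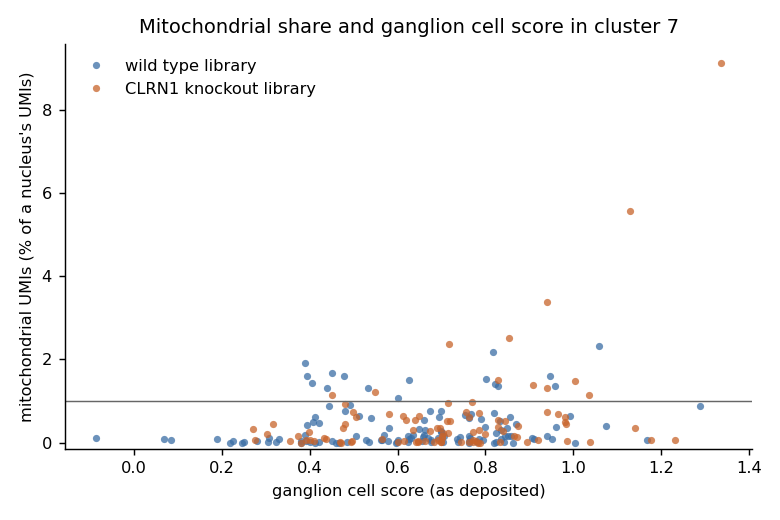
Mitochondrial UMIs as a percent of a nucleus's UMIs (vertical axis) against the ganglion cell score (horizontal axis) in cluster 7, 1 point per nucleus, with a line at 1%. Most nuclei of both libraries lie below the line, and 1 knockout nucleus stands at 9.12%, where the highest wild-type nucleus is at 2.33%.

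In the authors' embedding, a map of nuclei in 2 dimensions made from both libraries, cluster 7 formed 1 island. Joining nuclei up to 1 unit apart gave 1 part with all 217 nuclei, and so did joining at 0.5 and at 2 units, since the widest gap inside the cluster was 0.235 units. No nucleus of another cluster lay within 1 unit. The nearest, in amacrine cluster 11, was 3.82 units away, and the nearest nucleus of cluster 14 was 33.1 units away. Distances in such a map do not measure expression differences, and the labels do not say whether the libraries were integrated.

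Both libraries filled the island. Among the 10 nearest neighbours within the cluster, knockout nuclei made up 41.9% for wild-type and 48.4% for knockout nuclei, where 43.8% of the cluster was knockout. At a joining distance of 0.2, chosen after seeing the data, the island fell into a larger part of 170 nuclei and a smaller one of 47. The smaller part held 29 wild-type nuclei, 23.8% of the cluster in that library (interval 16.5 to 32.3%), and 18 knockout nuclei, 18.9% (11.6 to 28.3%). It was shallower, with a median of 5649 UMIs against 6749.5. Its ganglion cell score was close to that of the larger part, 0.70 against 0.69. Its bipolar score was higher in the wild type, -0.08 against -0.17, and close in the knockout, -0.16 against -0.18. Of the 18 wild-type nuclei with a bipolar score above 0, 10 lay in it, while 0 of its 18 knockout nuclei exceeded 0. Its Müller glia score was lower in both libraries, -0.24 against -0.16 in the wild type and -0.21 against -0.08 in the knockout. Its amacrine score was higher in both, -0.08 against -0.15 and -0.07 against -0.12. These scores come from the nuclei that shaped the map, so they describe the parts and test nothing.

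**Figure D5:**
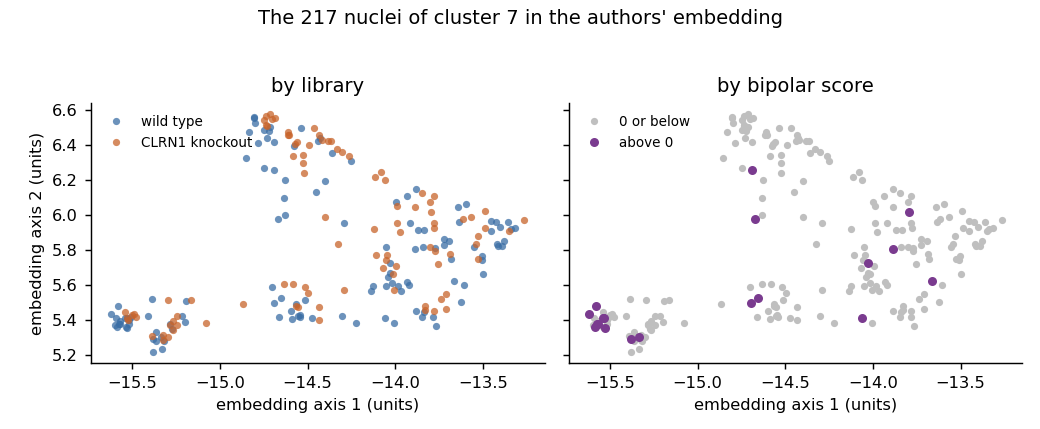
The 217 nuclei of cluster 7 by their 2 coordinates in the authors' embedding (both axes in map units), coloured by library on the left and by a bipolar score above 0 or not on the right. Wild-type and knockout nuclei are mixed throughout, and 10 of the 19 nuclei with a bipolar score above 0 lie in the separate group at the lower left.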

How the data were processed

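Nuclei of 2 libraries, each a pool of 3 rabbits, were taken with the authors' cluster numbers, cell types and embedding as deposited. Per the submitters' processing notes, the genome build was OryCun2.0 and the tools included DESeq2 1.38.0, Seurat 4.3.0 and Cell Ranger 7.0, with no role stated. UMI counts and genes per nucleus are raw counts deposited by the authors. The mitochondrial share was deposited as a percent of UMIs, and it corresponded to whole UMIs in every nucleus. The 9 module scores were deposited by the authors under column names of the form that Seurat writes, with no gene list. The deposited count matrix has numbers in place of gene and nucleus names, so it was not used, no gene was named (the rule for named genes required names), and nuclei could not be thinned to equal UMIs. Filters on nuclei and the treatment of doublets: not given in the sources used here. Doublets were not searched for, because that takes gene counts of each nucleus.

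Depth was 499 to 30726 UMIs per nucleus, with library medians of 1175.5 and 1552.5. For each library, medians, quartiles and exact Clopper-Pearson intervals at 95% were computed, which cover counting error only. Genes per nucleus were compared in log2 UMI windows of 0.5 with at least 10 nuclei of each group. They were also compared in pairs within 5% of UMIs, a choice made after seeing the data. Both were run on simulated data. A limit of error was set there for the pairs and for windows of 0.25, but not for windows of 0.5. The pairs, whose UMIs match more closely, are described first with the windows beside them. Parts of the embedding were found by single linkage. Other choices tried were denominators, UMI minimums, mitochondrial limits, window widths and joining distances. The cluster, scores and measures were chosen with earlier results of these data known. Software was SciPy 1.17.1, numpy 2.4.6, pandas 2.3.3 and matplotlib 3.10.9 under Python 3.11.15.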

Additional observations from a re-analysis of the deposited data

Results flagged for a closer look

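The 2 ganglion cell clusters were set side by side for 12 measures, and in 3 of them the knockout to wild-type difference had opposite signs. None of these differences was tested, since each genotype is 1 library. The share of nuclei had a log2 ratio of -0.17 in cluster 7 and 1.83 in cluster 14. Genes per nucleus in pairs at matched UMIs had a log2 ratio of 0.026 in cluster 7 and -0.063 in cluster 14. The horizontal score differed by -0.017 in cluster 7 and by 0.0049 in cluster 14.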

How the results depend on the processing

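No paired analysis was possible because each genotype is 1 library and the labels give no shared replicate numbers. Recalculated score differences moved by less than 0.1. Of 54, 4 changed sign, for the cone, bipolar and amacrine scores, and the rod difference of -0.11 ran from -0.14 to -0.018. The log2 ratio of median UMIs, 0.40, was 0.0011, -0.037 or 0.11 once divided by the library median of all nuclei, nuclei other than rods, or rods. The share of cluster 7, with a log2 ratio of -0.17, was -0.62 over nuclei with at least 2000 UMIs, where the intervals no longer overlapped (10.9 and 7.13%), -0.61 over nuclei with a ganglion cell label, and 0.05 without rods and cluster 14. Over both libraries, the ratio of genes in windows of 0.5 was 1.04 to amacrine cells. It was 1.04 to cones and 1.19 to horizontal cells, which filled such a window in the knockout library only. Windows of 1 gave 1.16, 1.17 and 1.30, and pairs gave 0.97, 0.95 and 1.08. A minimum of 5 nuclei per window gave 1.14 for horizontal cells. Knockout over wild type, 1.08 in windows, was 1.02 in pairs. The log2 ratio of mitochondrial shares, 0.80 for medians, was 0.23, -0.054 and 1.68 for nuclei over 0.5, 1 and 2%, 0.27 for pooled UMIs without the highest nucleus and 0.47 in pairs. Joining at 0.2 and 0.15 units gave 2 and 4 parts of at least 5 nuclei. Pairs, these 2 distances, the omitted nucleus and the share without cluster 14 were chosen after seeing the data. For these changes the cause was not tested. Windows of 0.25 held too few nuclei for cones and horizontal cells, as did a minimum of 20, nuclei under 1% mitochondrial UMIs and the wild-type library alone. Bipolar cells and Müller glia filled no window of 0.5. Windows of 1 gave 1.19 and 1.20 for them, above 1 where pairs lay below, and a minimum of 5 nuclei gave 0.99 and 0.96. Cluster 14 filled none in the settings run. Depth limits what cluster 7 can be compared with, since few nuclei of other types reach its UMIs.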
